A study of Mus musculus with 1457 samples.

Results

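Cells sorted in the middle of the endothelial-to-hematopoietic transition (EHT) carry 2 kinds of labels in this study of the mouse dorsal aorta. Of the 1457 single cells of the series, 83 were sorted through the EHT gate. For 41 of these cells the title and the stage field both give E10.5, with stages named by the embryonic day. For the other 42 the title gives E11.5 while the stage field gives E10.5. This conflict was not resolved here. The 42 cells are called titled E11.5 and the 41 cells E10.5, and nothing below assigns an age to the first group. No EHT cell had under 100000 reads, so 0 cells were left out of either group.

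Both groups came from dissected AGM tissue (aorta, gonad and mesonephros) of ICR embryos that carried 1 reporter allele at each of 2 loci, Gfi1:Tomato/WT and Gfi1b:GFP/WT. Every cell compared below, those of the other sorts included, is from this line, so each embryo kept 1 unmodified copy of Gfi1 and of Gfi1b, and no comparison below has a group without the reporters. The EHT gate took cells positive for CD41, KIT, CDH5 and the GFI1 reporter that were negative for TER119, CD45 and the GFI1b reporter. Single cells were sorted into wells, and polyadenylated RNA was amplified by a form of Smart-seq2, a method that covers whole transcripts and adds no molecular identifiers. No label names an embryo, litter, plate or day of sorting, so each group counts as 1 sample. For this reason no p-value is given, and any difference between embryos, plates or sort days cannot be told apart from the difference in title.

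In the embryo, blood stem cells arise from hemogenic endothelium (HE), a small set of cells in the wall of the dorsal aorta that switch from an endothelial to a blood program. RUNX1 starts this switch, and its targets GFI1 and GFI1B shut down endothelial genes as the cells round up and gather into intra-aortic hematopoietic clusters (IAHC). The clusters mature over the following day, when cells first acquire CD45 (encoded by Ptprc) and the ability to engraft as stem cells.

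Cells titled E11.5 had 193483 to 817620 reads (median 305240) and E10.5 cells 319003 to 716358 (median 509725). After each cell was thinned to 100000 reads, the median number of genes was 6730.5 in the titled group and 6606 in the E10.5 group. Mitochondrial genes took a median of 3.61% and 3.12% of the reads, and no cell of either group had 1% of its reads in globin genes. Xist reads exceeded Y-linked reads in 33 of the 42 titled and 26 of the 41 E10.5 cells, so both groups held cells of both sexes. Levels are given below in CPM, reads of a gene per 1000000 of the summed reads of a group, with exact Poisson intervals in brackets at 95%. These intervals cover counting error only, since reads copied by PCR are not independent molecules and no replicate sample exists. Fold changes and log2 ratios were taken with 1 CPM added to both sides. A gene was counted as higher or lower when the fold was at least 2 and the higher group had at least 20 CPM and reads in at least 25% of its cells. By this rule, of 8285 genes tested, 8.18% were higher in the titled cells and 3.56% were lower. With the groups scaled by the median of ratios, which shifts every log2 ratio by -0.10, the shares were 6.58% higher and 5.06% lower. The first pair of shares is the background for each gene list below, as is the median log2 ratio of 0.11 over the 16900 genes measured with over 3 reads in either group. The lists and their members were chosen with earlier results of these data known, so counts set beside this background are descriptive only.

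The 4 positive markers of the gate were read in both groups, in unequal shares of cells. Cdh5, the VE-cadherin of endothelial junctions, reached 545.9 CPM [534.2 to 557.9] in the titled cells and 397.9 CPM [389.3 to 406.6] in the E10.5 cells, and all but 1 of the 83 cells held a read of it. Kit, the receptor for stem cell factor, stood at 842.5 and 607.2 CPM. Gfi1, which drives the reporter that defined the gate, stood at 179.2 and 136.5 CPM, with reads in 90.5% and 90.2% of the cells. Itga2b, which encodes CD41, was lower in the titled cells and read in fewer of them, at 15.9 against 38.4 CPM with reads in 35.7% and 58.5% of the cells. The cell ranges of all 4 genes overlapped. Runx1 stayed within 2-fold, at 194.04 CPM in the titled group and 233.7 CPM in the E10.5 group, with reads in 41 of 42 and in 41 of 41 cells. Spi1, which encodes the myeloid and stem cell transcription factor PU.1, was read in 40 of 42 and 36 of 41 cells at 270 and 244.7 CPM.

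A marker that set the groups further apart than the gate markers was Ptprc (chr1:138062861-138175708, minus strand, GRCm38), which encodes the CD45 phosphatase of blood cells. In the titled cells its level ranged from 0 to 1265.3 CPM per cell with a median of 129.3, and in the E10.5 cells from 0 to 361.9 CPM with a median of 0. The ranges overlapped, since 11 titled cells held no read, yet 31 of 42 titled cells and only 8 of 41 E10.5 cells held one. Summed over cells the level was 173.6 CPM [166.998 to 180] against 27.7 CPM [25.5 to 30.1], a fold of 6.08. At 100000 reads per cell the share of cells with a Ptprc read was 71.4% (exact Clopper-Pearson interval 55.4 to 84.3) against 17.1% (7.15 to 32.1), so the gap between the shares was about as wide at equal depth. CD45 protein on the surface was excluded by the gate of both groups, and the protein was not measured here. In the 41 endothelial (Endo) cells of the same conflict of labels no cell held a Ptprc read, which allows a share of up to 7.32%. Ptprc was higher within each sex, at 151.3 against 42.7 CPM in the cells with Xist reads and 275.5 against 2.37 CPM in those with Y reads.

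Since Cdh5 was read in nearly all cells, Ptprc was set beside an endothelial gene read in fewer. Sox17, an arterial transcription factor that precedes the blood switch, was read together with Ptprc in 17 of 42 titled cells and in 1 of 41 E10.5 cells. These counts are limited by the number of cells with a Ptprc read, which was 31 in the titled and 8 in the E10.5 group. Gfi1b, whose reporter was excluded by the gate, was lower in the titled group, at 20.7 CPM [18.4 to 23.1] against 50.1 CPM [47.1 to 53.2], with reads in 11 and 18 cells. That direction held in the cells with Xist reads (log2 ratio -1.96) and turned in the 9 and 14 cells with Y reads (1.25).

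**Figure D1:**
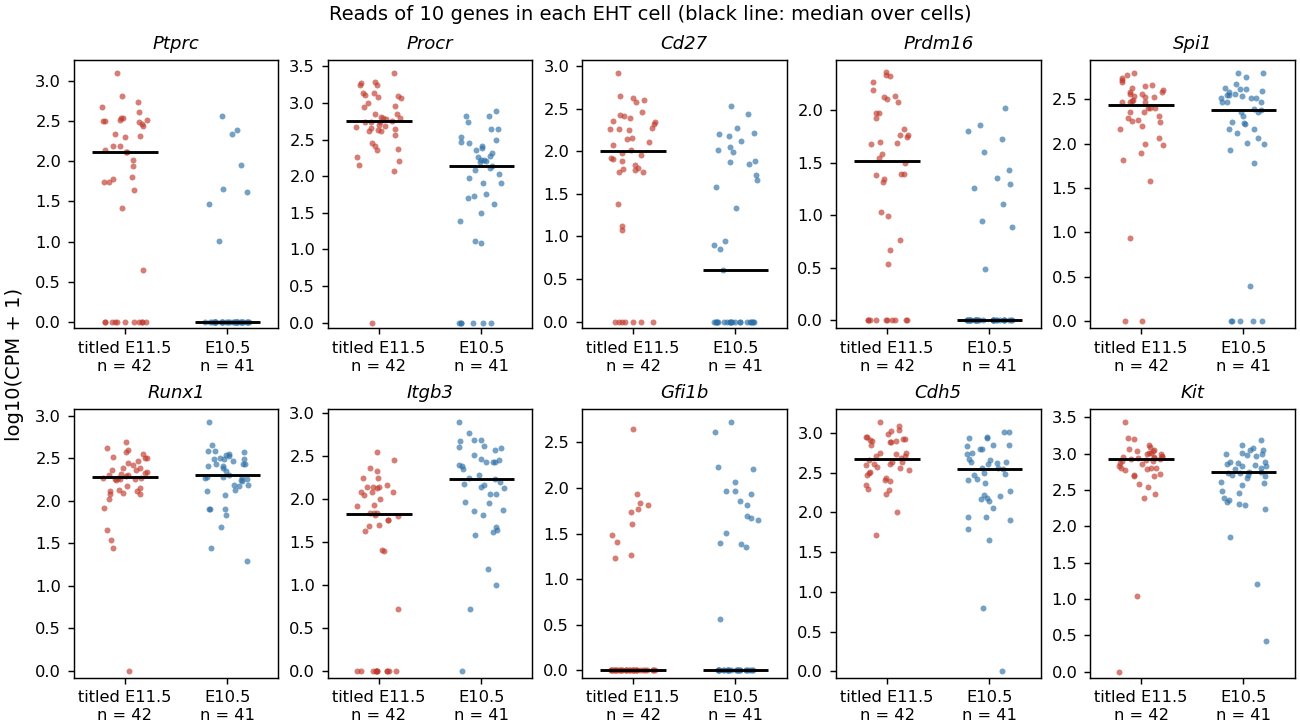
Level of 10 genes in each of the 42 titled E11.5 and 41 E10.5 EHT cells, as log10(CPM + 1); each point is a cell and the black line is the median over cells. The medians of Ptprc and Prdm16 are 0 in the E10.5 cells and 129.3 and 32.2 CPM in the titled cells, while Spi1, Runx1, Cdh5 and Kit overlap widely.

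A list of blood cell genes, most of them surface receptors and some of them proteins inside the cell, had the most members past the fold. Of 25 genes 19 could be tested, 11 were higher and 2 lower, and the median log2 ratio over all 25 was 1.32. Laptm5, a lysosomal adaptor of blood cells that lowers receptor levels, was the clearest by cell. It ranged from 95.9 to 1232.5 CPM (median 678.05) in the titled cells and from 10.7 to 523.2 CPM (median 255.1) in the E10.5 cells. Here 31 of the 42 titled cells lay above the highest E10.5 cell, and no E10.5 cell reached the titled median. Spn, the sialomucin CD43 that marks maturing cluster cells, stood at 127.5 CPM [121.9 to 133.3] against 36.7 CPM [34.1 to 39.4], and Cd53, a tetraspanin of blood cells, at 58.5 against 7.33 CPM. Coro1a, an actin-binding coronin of leukocytes, was 2.16-fold higher, with 10 titled cells above the highest E10.5 cell. The exceptions were the integrin chains of platelets, Itga2b and Itgb3. Itgb3 stood at 90.7 CPM [85.9 to 95.6] in the titled and 216.7 CPM [210 to 223.1] in the E10.5 cells, a fold of 2.38 lower, and 36 of 42 titled cells lay below the E10.5 median.

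Actin and signalling genes of leukocytes, a list that shares members such as Rac2 and Vav1 with the blood cell list, had the same direction. Of 23 genes tested 9 were higher and 0 lower, with a median log2 ratio of 0.88. Rac2, a small GTPase of blood cells, stood at 159.2 against 41.2 CPM, and Vav1, the exchange factor that activates it, at 47.1 against 11.7 CPM. Fermt3, the kindlin that activates integrins in blood cells, was read in 83.3% and 56.1% of cells at 87.9 and 32.1 CPM. Of 21 early lymphocyte genes only 6 could be tested, and 4 of these were higher and 0 lower. Among the 4 were Gata3 (42.1 against 14.3 CPM) and Lsp1, a leukocyte actin-binding protein (110 against 33.4 CPM). Gata3 was not confined to blood sorts, at 73.5 CPM in HE cells and 10.3 CPM in IAHC cells of E10.5.

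Part of the blood and phagocyte signal came from 5 titled cells. A list of 12 genes that define tissue macrophages, such as the complement gene C1qb and the fractalkine receptor Cx3cr1, was read at 486.2 CPM in the titled group and 11.8 CPM in the E10.5 group. The 5 cells held reads of 5 to 11 of these genes, with a summed level of 510 to 6227 CPM each. The other 37 titled cells held at most 1 of the 12 genes and together 9.22 CPM, and no E10.5 cell held more than 2. None of the 7 other sorts set beside the EHT cells had a cell with 5 or more. All 5 cells held Cdh5 reads, at 51.7 to 293.8 CPM, and 4 of them held Kit at 723.3 to 1254.7 CPM, while the fifth had 9.90 CPM. Whether these wells held 1 cell or more was not tested.

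Csf1r, the receptor of macrophage colony-stimulating factor, drew most of its level from these cells. It stood at 81.6 CPM [77.1 to 86.3] in the titled and 2.62 CPM [1.97 to 3.42] in the E10.5 group, with reads in 9 of 42 and 3 of 41 cells, which kept it under the share asked of a tested gene. Without the 5 cells, a choice made after the data were seen, it stood at 15.98 CPM in the titled group, a log2 ratio of 2.23. C1qb, read at 135.7 CPM, was at 0 without them, and it was also at 0 in the E10.5 cells. The full group lay 931.8-fold above a floor of 3 reads, which bounds reads and not cells. All C1qb reads came from the 5 cells, and 0 of 41 E10.5 cells still allow a share of up to 7.32%. Ptprc stood at 153.3 CPM without the 5 cells. Of 8266 genes tested without them, 8.59% were higher and 4.05% lower. Rac2 stood at 100.3 CPM, Cd53 at 40.9 CPM and Hk2, described with glycolysis, at 15.3 CPM without them. The medians of the lists moved more. Blood surface genes, as that list is called, went from 1.32 to 0.59, leukocyte actin and signalling genes from 0.88 to 0.45, and granulocyte and macrophage genes from 1.92 to 0.30. With members that were at 0 in the E10.5 cells set against that floor of 3 reads, the last list stood at 2.93 before the 5 cells were left out.

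**Figure D2:**
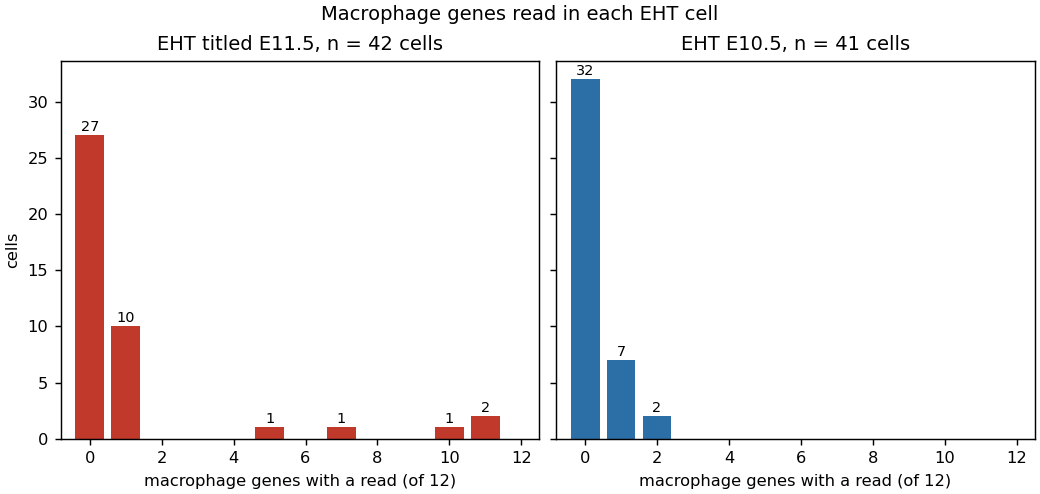
Number of cells (y axis) by how many of 12 macrophage genes had a read (x axis), for the 42 titled E11.5 EHT cells (left) and the 41 E10.5 EHT cells (right). A separate group of 5 titled cells has 5 to 11 of the genes, while the other cells of both groups have at most 2.

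Several genes known from blood stem cells stood higher in the titled cells. Of 21 genes 17 could be tested, 4 were higher and 0 lower, against a background of 8.18% and 3.56%, and the median log2 ratio was 0.61. Procr (chr2:155751117-155755471, plus strand), the endothelial protein C receptor that marks embryonic stem cell precursors, was read in 97.6% of titled and 85.4% of E10.5 cells and ranged from 0 to 2610 CPM (median 564.7) in the titled cells and from 0 to 786.6 CPM (median 136.3) in the E10.5 cells. Only 3 E10.5 cells lay above the titled median, and 14 titled cells lay above every E10.5 cell. The summed levels were 784.9 CPM [770.8 to 799.2] and 192.8 CPM [186.8 to 198.9], a fold of 4.06. Without the 5 cells with macrophage genes Procr stood at 847.8 CPM. In cells with Xist reads it stood at 860.995 against 162.4 CPM and in cells with Y reads at 437.5 against 258.4 CPM.

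Prdm16, a chromatin regulator that stem cells need for self-renewal, was read in 32 of 42 titled and 13 of 41 E10.5 cells at 58.4 CPM [54.6 to 62.4] and 11.9 CPM [10.45 to 13.5]. Thinned to 100000 reads the shares were 73.8% (57.96 to 86.1) and 24.4% (12.4 to 40.3). Cd27, a TNF receptor family member found on cluster stem cells, stood at 150 CPM [144.2 to 156.7] against 49.7 CPM [46.7 to 52.9]. Mllt3, a reader of acetylated histones that maintains human stem cells, was the fourth past the fold, at 235.1 against 110.6 CPM. In the cells with Y reads both Mllt3 (196.4 against 169.6 CPM) and Procr (log2 ratio 0.76) stayed under the fold. Cd27 stayed just under it in the cells with Xist reads, at 135.9 against 68.3 CPM (log2 ratio 0.98), and was at 3.41 in those with Y reads. Prdm16 was at 2.45 in the cells with Xist reads and 1.16 in those with Y reads. Over all cells the transcription factors Mecom, Hlf and Meis1 stayed under it, at log2 ratios of 0.72, 0.69 and 0.19, and so did Cd34, at 856.3 against 917.95 CPM. Mecom was at 1.33 in the cells with Xist reads and -0.26 in those with Y reads.

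Blood transcription factors differed little as a list. Of 24 tested, 0 were higher by 2-fold, and Gfi1b alone was lower, with a median log2 ratio of 0.25. Mycn, a proto-oncogene of immature cells, stood at 217.4 against 372.3 CPM. Among cytokine receptors 2 of 12 tested were higher, the granulocyte colony-stimulating factor receptor Csf3r (50.6 against 18.8 CPM) and the TNF receptor Tnfrsf1b (30.7 against 7.09 CPM). Cxcr4, the homing receptor of stem cells, was read in 54.8% against 17.1% of cells but stayed under the level asked of a tested gene, at 17.3 and 2.91 CPM.

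Interferon and inflammatory response genes, summed, lay above the E10.5 median in all but 1 titled cell. Of 17 genes tested, 9 were higher and 0 lower, and the median log2 ratio over the 31 measured members was 1.18. Without the 5 cells with macrophage genes the median was 0.88. Ifi44 (chr3:151730922-151749960, minus strand), an interferon-induced gene, had the highest ratio of the genes named by rule among those tested. Its level was 45.02 CPM [41.7 to 48.5] over the titled cells, in 12 of 42 cells and up to 807.3 CPM in one, and 0 in the E10.5 cells. The titled level was 309.07-fold above a floor of 3 reads over the E10.5 group, which bounds reads and not cells. The 0 of 41 E10.5 cells still allow a share of up to 7.32%, so no smallest fold is given. Psmb8 (chr17:34197721-34201454, plus strand), an immunoproteasome subunit, was read in 26 and 4 cells at 36.8 CPM [33.8 to 39.98] and 1.17 CPM [0.747 to 1.73].

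H2-K1, a class I heavy chain of antigen presentation, ranged from 49.6 to 996.1 CPM (median 222.03) in the titled cells and from 0 to 227.1 CPM (median 82.7) in the E10.5 cells. Exactly 21 of the 42 titled cells exceeded every E10.5 cell, and 1 E10.5 cell exceeded the titled median. H2-D1 was 2.41-fold higher and Ifitm1, a membrane protein that restricts virus entry, 2.26-fold. The signalling genes Irf1 (59.6 against 17.7 CPM), Irf9 (54.99 against 16.8 CPM) and Nfkbia (130 against 61.4 CPM) passed the fold as well. Several further members came just short of it, namely Stat2 at 1.97-fold, Ifitm3 at 1.90-fold and B2m, the class I light chain, at 1.84-fold. Of these, B2m had 38 of 42 titled cells above the E10.5 median.

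Promoter windows of these last 3 genes are shown because each holds a copy of the pair of GAAA runs spaced by any 2 bases, the form read by interferon regulatory factors. The windows run from 250 bases before to 50 after the RefSeq start of the gene in GRCm38.p6, 5′ to 3′ on the strand of the gene, with the motif or its reverse complement in capitals. On both strands, 8 of 26 members of the list with a window (30.8%) held the motif, against 3.99% of 27025 genes with one. The 8 were Ifitm2, Ifitm3, Isg15, Stat2, Bst2, Myd88, Cxcl10 and B2m, and none of the genes named above as past the fold is among them. The share thus describes the list and not those genes. A match is a run of letters and was not tested for binding.
Ifitm3, chr7:141010695-141010994, minus strand: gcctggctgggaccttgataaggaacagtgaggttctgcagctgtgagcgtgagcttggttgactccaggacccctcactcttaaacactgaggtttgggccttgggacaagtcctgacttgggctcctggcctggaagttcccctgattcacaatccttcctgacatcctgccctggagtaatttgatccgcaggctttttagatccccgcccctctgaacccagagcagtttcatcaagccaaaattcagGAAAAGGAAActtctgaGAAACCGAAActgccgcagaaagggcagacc
B2m, chr2:122147437-122147736, plus strand: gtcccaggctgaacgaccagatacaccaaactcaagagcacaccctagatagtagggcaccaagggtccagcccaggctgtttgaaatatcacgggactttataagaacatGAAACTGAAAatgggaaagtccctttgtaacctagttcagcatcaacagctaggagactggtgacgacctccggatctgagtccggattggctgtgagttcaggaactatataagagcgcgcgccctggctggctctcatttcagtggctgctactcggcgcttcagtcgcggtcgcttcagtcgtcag
Stat2, chr10:128270248-128270547, plus strand: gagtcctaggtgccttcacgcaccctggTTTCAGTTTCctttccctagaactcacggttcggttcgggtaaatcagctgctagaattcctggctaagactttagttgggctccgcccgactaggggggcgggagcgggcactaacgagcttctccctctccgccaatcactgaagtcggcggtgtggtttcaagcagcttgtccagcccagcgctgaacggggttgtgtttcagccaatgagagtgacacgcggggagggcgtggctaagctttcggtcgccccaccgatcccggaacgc

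Other genes with high ratios belonged to no list. Ces2b, a carboxylesterase, was read in 25 of 42 and 3 of 41 cells at 59.6 CPM [55.7 to 63.6] and 1.65 CPM [1.14 to 2.31], and 18 titled cells exceeded every E10.5 cell. Tbxas1, the thromboxane synthase of platelets and macrophages, stood at 30.7 against 0.291 CPM and kept 31.04 CPM without the 5 cells with macrophage genes. Parvg, an integrin-linked parvin of blood cells, lost part of its level without them, at 48.01 CPM with and 19.7 CPM without. It stayed above the 0.971 CPM of the E10.5 cells, at a log2 ratio of 3.40 without the 5 cells. With reads in 7 of the 37 cells left, it was then under the level and the share asked of a tested gene. Ramp1, which turns the calcitonin-like receptor into a receptor for CGRP, stood at 66.4 against 4.08 CPM, and Palmd, which encodes palmdelphin, at 28.4 against 1.26 CPM. Each of these genes was at 0 in some cells of both groups.

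Endothelial genes stayed on in both groups. Of 25 genes common to all endothelium 2 were higher and 1 lower, with a median log2 ratio of 0.58. The list median was 0.80 in cells with Xist reads and -0.31 in cells with Y reads. The 2 higher genes were Robo4, a guidance receptor that helps anchor stem cells (72.3 against 20.4 CPM), and Bmx, an arterial kinase (102.7 against 44.3 CPM). In the cells with Y reads neither passed the fold, at log2 ratios of 0.33 and 0.43. Plvap, the diaphragm protein of fenestrae, was lower, at 148.4 CPM [142.3 to 154.7] against 382.8 CPM [374.4 to 391.3], and 33 of 42 titled cells lay below the E10.5 median. Among arterial genes 4 of 19 tested were higher, Bmx, Ltbp4, Hey2 and Jag1. The arterial median of 0.52 was 1.10 in cells with Xist reads and -1.37 in cells with Y reads, and Hey2 and Jag1 turned with it. Hey2 stood at 34.8 against 3.09 CPM in the cells with Xist reads and at 0 against 18.3 CPM in those with Y reads. Of Notch pathway genes 3 of 15 were higher, led by Hey2 and the receptor Notch3 (50.5 against 15.7 CPM, and 31.4 against 24.01 CPM in the cells with Y reads). One was lower, the non-canonical ligand Dlk1, at 12.02 against 65.5 CPM, with 17.7 against 19.3 CPM in the cells with Y reads.

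Division genes lay lower in the titled cells. Of 22 replication genes 5 were lower and 0 higher, with a median log2 ratio of -0.76. Rrm2, the small subunit of ribonucleotide reductase, stood at 107.2 against 302.3 CPM and was not read in 23 of 42 titled cells and 5 of 41 E10.5 cells. Of 20 genes of mitosis 9 were lower and 0 higher, with a median of -0.89. Plk1, a kinase that drives entry into mitosis, stood at 83.9 CPM [79.3 to 88.6] against 296.5 CPM [289.1 to 304.03], a fold of 3.51. The summed level of the mitosis list ranged from 0 to 15432 CPM (median 2010) in the titled cells and from 195.9 to 15695 CPM (median 5357) in the E10.5 cells. Cells with high levels thus occurred in both groups, and the titled group held more cells near 0.

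Ribosome assembly genes, summed, lay below the E10.5 median in every titled cell. Of 20 genes 8 were lower and 0 higher, with a median log2 ratio of -0.81. The E10.5 median of the summed level was 9553 CPM, and 11 of the 42 titled cells also lay below the lowest E10.5 cell. Ncl, the nucleolin of the nucleolus, ranged from 267.1 to 1613 CPM (median 784.9) in the titled cells and from 566.9 to 2949 CPM (median 1819) in the E10.5 cells. None of the 42 titled cells reached the E10.5 median of Ncl. Myc, which drives these genes, was read in 12 of 42 and 27 of 41 cells at 23.7 CPM [21.3 to 26.3] and 87.02 CPM [83.03 to 91.1]. Other members past the fold were Rrp9, Rrs1, Dkc1, Nolc1, Nhp2 and Bop1, with 2.08-fold to 2.75-fold lower levels. The direction was the same in cells with Xist reads (list median -0.96) and with Y reads (-0.60).

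Of 15 list members with a promoter window, 2 (13.3%) held the E-box CACGTG bound by MYC, against 8.09% of all genes with a window. Both are printed in the same form, with the E-box in capitals, although neither passed the fold. Nop2, a ribosomal RNA methyltransferase, stood at 89.9 against 140 CPM, and Pes1, a ribosome assembly factor, at 78.03 against 109.5 CPM.
Nop2, chr6:125131633-125131932, plus strand: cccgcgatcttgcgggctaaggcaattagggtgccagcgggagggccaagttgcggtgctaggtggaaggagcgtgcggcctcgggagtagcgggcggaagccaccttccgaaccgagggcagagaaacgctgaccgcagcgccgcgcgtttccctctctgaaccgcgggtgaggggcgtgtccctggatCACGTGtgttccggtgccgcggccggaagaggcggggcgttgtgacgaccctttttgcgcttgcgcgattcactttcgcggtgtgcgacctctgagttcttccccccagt
Pes1, chr11:3963725-3964024, plus strand: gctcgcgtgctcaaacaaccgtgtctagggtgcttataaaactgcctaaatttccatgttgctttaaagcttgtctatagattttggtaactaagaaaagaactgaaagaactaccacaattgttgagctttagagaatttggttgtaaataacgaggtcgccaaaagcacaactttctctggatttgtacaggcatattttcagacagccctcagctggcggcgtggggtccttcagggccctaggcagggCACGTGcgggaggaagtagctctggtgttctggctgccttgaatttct

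Glycolysis followed the same direction with exceptions. Of 16 genes tested 5 were lower and 0 higher, with a median log2 ratio of -0.44. Ldha (chr7:46841475-46855627, plus strand), a subunit of lactate dehydrogenase, ranged from 279.1 to 1829 CPM (median 742.9) in the titled cells and from 551.7 to 4301 CPM (median 1895) in the E10.5 cells. All 42 titled cells lay below the E10.5 median, and 10 lay below every E10.5 cell. The summed levels were 798.7 CPM [784.5 to 813.1] and 2004 CPM [1985 to 2023], a fold of 2.51. Hexokinase 2 (Hk2) stood at 25.6 against 99.4 CPM and enolase 1 (Eno1) at 272.7 against 724.6 CPM. The heart-type subunit Ldhb went the other way, at 91.8 against 47.005 CPM, without reaching the fold. Of the 20 nuclear genes of the respiratory chain 0 passed in either direction, with a median of -0.17.

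**Figure D3:**
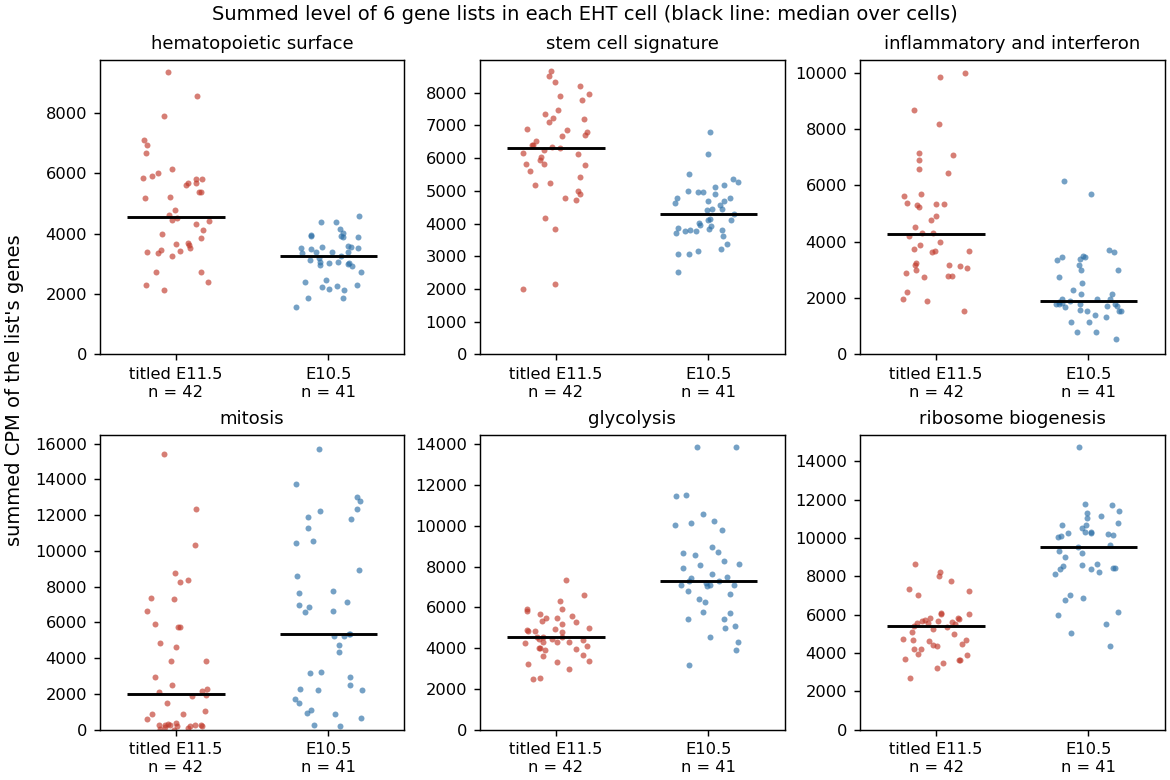
Summed CPM of 6 gene lists in each of the 42 titled E11.5 and 41 E10.5 EHT cells; each point is a cell and the black line is the median over cells. The titled cells lie higher for the surface, stem cell and interferon lists and lower for mitosis, glycolysis and ribosome biogenesis, where all 42 lie below the E10.5 median of the last list.

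Several genes with low ratios lay outside these lists. Crmp1 (chr5:37241940-37292133, plus strand), a cytoskeletal protein of growing axons, had the lowest ratio of the tested genes named by rule, at 1.20 CPM [0.708 to 1.89] against 34.3 CPM [31.8 to 36.9]. Slc38a4, an imprinted amino acid transporter, stood at 4.12 CPM [3.16 to 5.28] against 53.8 CPM [50.6 to 57.02], with reads in 8 of 42 and 27 of 41 cells. X-linked Fndc3c1 was read in 9 and 35 cells, and none of the titled cells reached the E10.5 median of 70.98 CPM. Sall4, a transcription factor of early embryonic cells, was read in 11.9% and 56.1% of cells at 2.79 and 20.98 CPM. Igfbp2, a binding protein of insulin-like growth factors, stood at 8.70 against 48.1 CPM. The stress gene Nupr1 stood at 53.7 against 301.8 CPM.

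Inhibitors of the cell cycle were mixed, with 2 of 6 tested higher, 1 lower and a median log2 ratio of 0.60. Cdkn1a, the p21 inhibitor, stood at 3.12 against 20.9 CPM. The retinoblastoma gene Rb1 (29.8 against 11.9 CPM) and the antiproliferative gene Btg2 (110.6 against 52.7 CPM) were higher, but both turned in the cells with Y reads, at log2 ratios of -0.82 and -1.04. Btg2 stood at 81.2 CPM without the 5 cells with macrophage genes.

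Fetal growth genes showed no common direction. Of 18 tested 2 were lower, Dlk1 and the chromatin protein Hmga1 (76.4 against 171.5 CPM), and 0 higher, with a median log2 ratio of 0.19. Hmga1 was level in the cells with Y reads (log2 ratio 0.02). The imprinted transcripts Igf2 (5278 against 4142 CPM) and H19 (5225 against 2935 CPM) stayed within 2-fold. Immediate early and heat shock genes, which dissociation can induce, were mixed, with 4 of 18 higher, 2 lower and a median of 0.22. Zfp36 stood at 119.2 against 41.7 CPM and at 48.5 CPM without the 5 cells with macrophage genes.

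Platelet genes were mixed, with 2 of 11 tested higher and 3 lower. Gp9, a chain of the von Willebrand factor receptor, stood at 45.2 against 9.13 CPM, and the thrombin receptor F2r at 135.5 against 316.3 CPM. None of the 3 posterior Hox genes tested and none of the 3 venous genes passed the fold.

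Markers of other tissues the gate could hold were read in both groups. The mesenchyme list summed to 34.997 and 40.6 CPM and the epithelial list to 109.04 and 105.7 CPM. Red cell genes summed to 105.9 and 138.2 CPM. Smooth muscle genes summed to 206.06 CPM in the titled and 472.7 CPM in the E10.5 cells, of which Acta2, took 95.7 and 266.7 CPM, with reads in 15 of 42 and 23 of 41 cells and up to 2627 CPM in an E10.5 cell. Sympathetic neuron genes summed to 81.8 and 97.9 CPM, most of it Stmn2 at 66.4 and 87.7 CPM. In the cells with Xist reads Acta2 stood at 116.6 against 146.6 CPM, and in those with Y reads at 0 against 439.03 CPM. Their part in the other results was not tested.

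The same conflict of labels occurs in 2 further gates of the line, whose cells are not shared with the EHT gate. HE cells differed from EHT cells in lacking surface CD41 and KIT, and Endo cells also lacked the GFI1 reporter. After cells under 100000 reads were left out, 39 HE cells titled E11.5 were set beside 95 of E10.5, and 41 Endo cells beside 73. By the same rule 11.7% of 7791 genes tested were higher and 6.97% lower in HE. In Endo, 8.11% of 7831 genes were higher and 7.36% lower. Among the E10.5 HE cells 16 had 1% or more of their reads in globin genes, and no titled HE cell did.

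Many of the genes called in the EHT cells were called in the same direction there. Of the genes higher in EHT, 41.1% of those tested in both gates were also higher in HE, which is 25.4% of the genes higher in HE, where 9.51% of all 7274 genes tested in both were higher. Of the genes lower in EHT, 37.5% were lower in HE, which is 17.2% of those lower in HE, with a background of 6.70%. In Endo, 34.7% of the higher genes and 30.7% of the lower genes of EHT were called as well, against 6.86% and 6.44% of the 7191 genes tested in both. These make up 27.4% of the genes higher and 15.8% of those lower in Endo. Cells of the 3 gates may come from the same embryos or plates, which the labels do not say, so the gates are not independent samples of a stage.

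By list, growth and division genes lay lower in the titled cells of all 3 gates, and blood surface genes did not lie higher in all. Median log2 ratios of ribosome assembly genes were -0.81 in EHT, -0.77 in HE and -0.76 in Endo. For mitosis they were -0.89, -1.67 and -0.96, and for replication -0.76, -1.30 and -1.24. Arterial genes were higher in each, at 0.52, 0.81 and 1.45. Stem cell genes were higher in each as well, at 0.61, 0.74 and 1.99. Procr stood at 612.2 against 208.1 CPM in HE and at 225.6 against 44.7 CPM in Endo, and Prdm16 at 124.3 against 35.4 CPM and at 71.5 against 9.75 CPM. By contrast Ptprc was at 0 in both titled groups and at 1.80 and 0 CPM in the E10.5 groups of HE and Endo. Actin and signalling genes of leukocytes had medians of 0.01 in HE and -0.02 in Endo. Interferon and inflammatory genes had medians of 0.17 in HE and 1.09 in Endo, beside 1.18 in EHT. The difference of these ratios between gates was not tested.

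**Figure D4:**
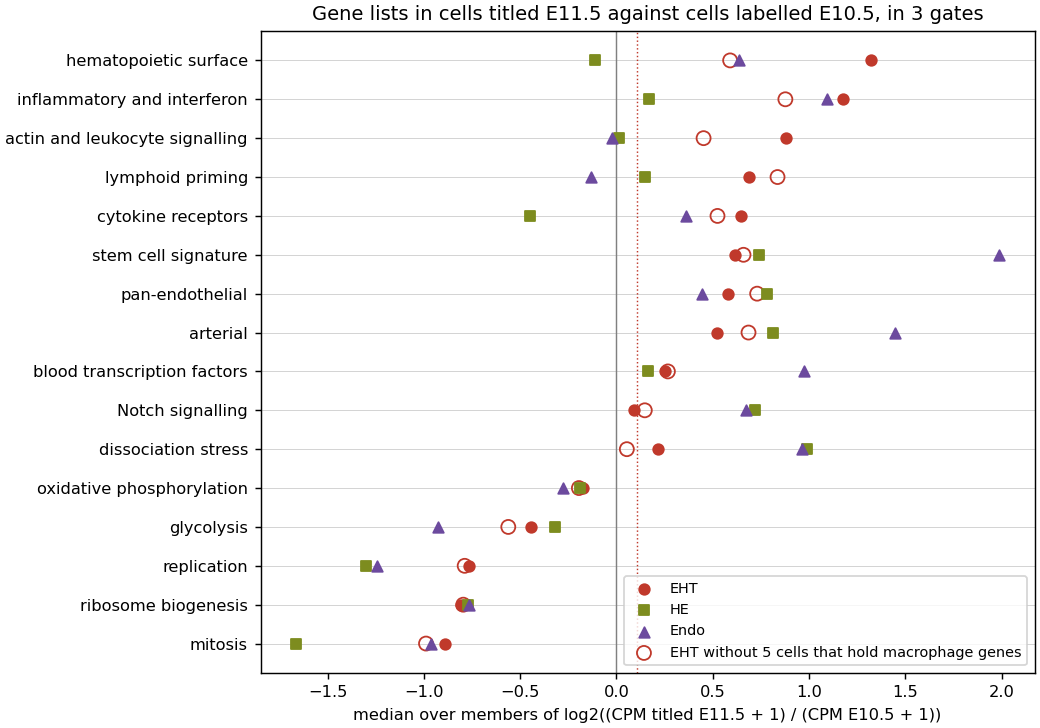
Median over the measured members of 16 gene lists of the log2 ratio between cells titled E11.5 and cells labelled E10.5, for EHT (filled circles), HE (squares) and Endo (triangles), and for EHT without 5 titled cells that hold macrophage genes (open circles); the dotted line is the EHT median over all measured genes. Replication, ribosome biogenesis and mitosis lie below 0 in all 3 gates, and the blood surface list lies at 1.32 in EHT, -0.11 in HE and 0.63 in Endo.

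Set among the other sorts, the titled EHT cells lay nearer to one sort or another depending on the gene. IAHC cells of E10.5, which carry the GFI1B reporter as well, held Ptprc at 85.4 CPM, between the E10.5 and titled EHT cells, with reads in 24 of 42 cells. Their Gfi1b stood at 156.4 CPM, above both EHT groups, and their Cdh5 at 117.9 CPM, below both. Procr stood at 77.5 CPM and Prdm16 at 6.09 CPM in the IAHC cells, while HE cells whose labels agree on E11.5 held 876.2 and 88.2 CPM. Cd27 was higher in the titled EHT cells (150 CPM) than in IAHC cells of E10.5 (75.9 CPM) and than in each HE and Endo sort, where it stood at 1.52 to 22.4 CPM. Ldha was 2004 CPM in EHT and 2202 CPM in IAHC cells of E10.5 and 798.7 CPM in titled EHT cells, beside 807.2 CPM in HE cells of E11.5 and 824.4 CPM in HE cells of E10.5. IAHC cells whose labels agree on E11.5 are left out of this comparison of levels, and 14 of the 22 had 1% or more of their reads in globin genes. No EHT sort with agreeing E11.5 labels was analysed here.

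**Figure D5:**
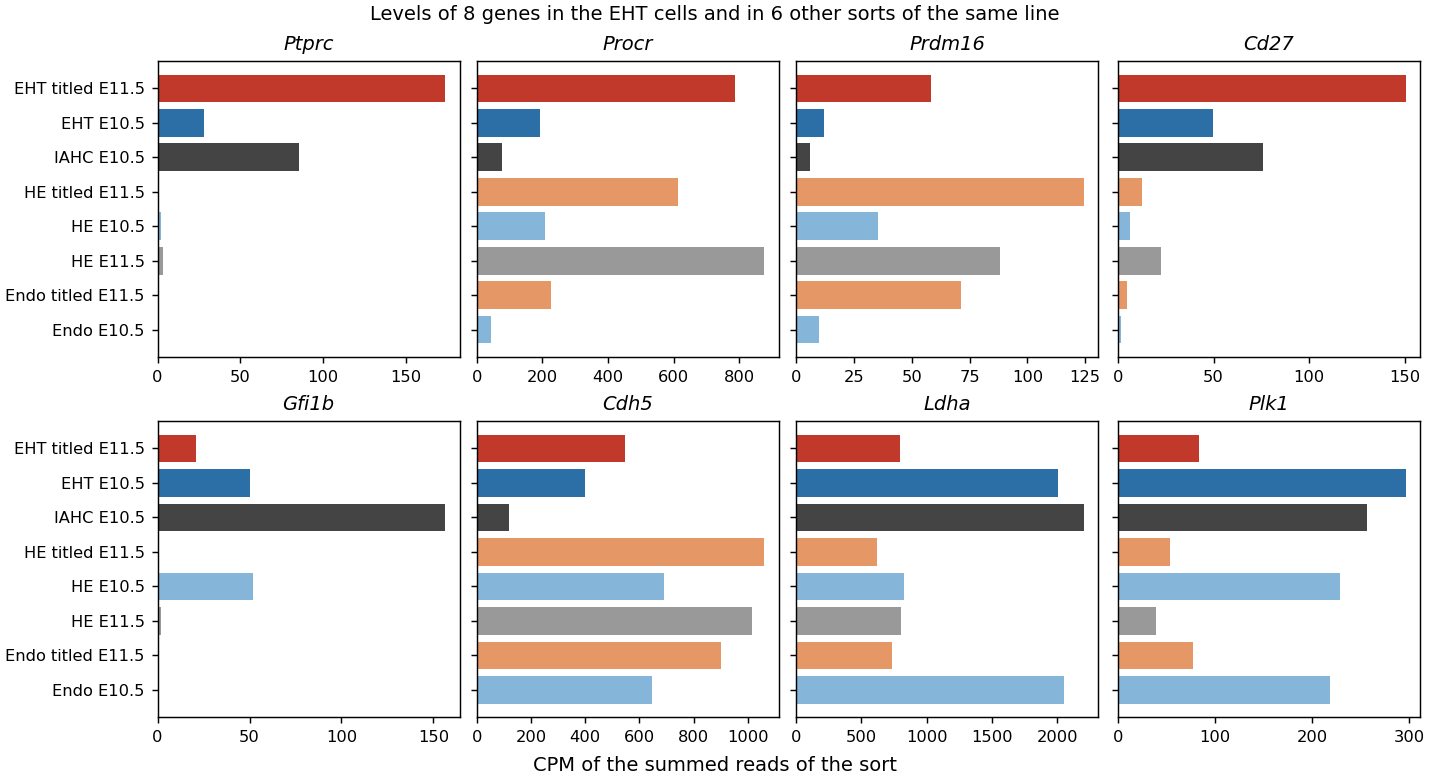
Level of 8 genes, as CPM of the summed reads, in both EHT groups and in 6 other sorts of the same line; each bar is 1 sort and has no replicate. Ptprc and Cd27 are highest in the titled EHT cells at 173.6 and 150 CPM, Gfi1b is highest in IAHC cells at 156.4 CPM, and Ldha and Plk1 are lower in the titled cells of each gate.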

How the data were processed

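Single cells were sequenced after a form of Smart-seq2, and each cell is its own library. The authors deposited 1 table of raw read counts per gene and cell. The submitters' processing notes name bcl2fastq, STAR 2.4.2a, HTSeq 0.6.1p1, R 3.6.2 and build GRCm38, while strand setting, annotation release and filters on cells are each not given in the sources used here. The copy used here held 36131 genes whole and later genes were not analysed here. Of its 1288 columns of cells 440 were used, the EHT cells and 7 other sorts of the same line, and 848 were not.

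Cells under 100000 reads were left out, reads were summed per group and scaled to counts per 1000000 reads of the group (CPM), and ratios were taken with 1 CPM added. A gene was tested, meaning open to a call by fold, when its higher group had 20 CPM or more and 25% or more cells with a read, and measured with over 3 reads in either group. Each group counts as 1 sample because no label names an embryo, litter or plate, so no p-value was computed. Shares of cells carry exact Clopper-Pearson intervals. No doublet caller was run. Samples were grouped by title and stage field. The members and lists were chosen with earlier results of these data known.

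Genes named by rule were the gate genes, Ptprc, Csf1r, Runx1 and Spi1, the 15 highest and 15 lowest ratios that held by the mean over cells and without the highest cell, and up to 4 members per list. Other list members were named after their values were seen. Genes near a copy or an antisense partner can share reads. Coordinates are from GRCm38. Tools were Python 3.11.15 with numpy 2.4.6, pandas 2.3.3, scipy 1.17.1 and matplotlib 3.10.9, and R 4.3.3 with edgeR 4.0.16 for TMM factors only. The counting of calls was tested on simulated data. Alternatives were other scalings, depths, filters and cells, described at the end.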

Additional observations from a re-analysis of the deposited data

Results flagged for a closer look

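Blood surface genes had different signs in the 3 gates that share the conflict of labels, with a median log2 ratio of 1.32 in EHT, -0.11 in HE and 0.63 in Endo. The EHT value was 0.59 without the titled cells that hold macrophage genes. Of the 25 genes, 19 could be tested in EHT, 8 in HE and 5 in Endo. Granulocyte and macrophage genes stood at 1.92 in EHT, -0.34 in HE and -0.11 in Endo, and at 0.30 in EHT without the 5 titled cells that hold macrophage genes. Hspa1a, an inducible heat shock protein, was lower in titled EHT cells (3.25 against 31.5 CPM, log2 ratio -2.93). It was higher in titled HE cells (163.5 against 35.4 CPM, 2.18) and in titled Endo cells (63.9 against 9.16 CPM, 2.67). Each gate has 1 sample per group, and these differences between gates were not tested.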

How the results depend on the processing

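Genes called higher and lower, 8.18% and 3.56% of those tested, stayed within 1.5 times in number under 8 of the 12 alternatives that change the values, among them TMM factors (6.69% and 4.95%), thinning to 100000 reads (8.35% and 3.81%) and leaving out the 5 titled cells with macrophage genes, an alternative chosen after seeing the data. The shares were 14.3% and 10.7% in cells of at least 500000 reads (7 titled and 21 E10.5 cells), 14.3% and 13.1% in cells with Y reads above Xist reads (9 and 14 cells), 4.31% and 1.92% with 10 CPM added, and 14.4% and 5.99% with no filter on low values. The last 2 follow from fewer and more low genes passing. Of the 97 genes named by rule with a 2-fold ratio, 80 kept their sign and 46 their 2-fold ratio under every alternative run. Of 30 list medians 4 were past 2-fold, and 0 of these stayed past it under every alternative run. Reversed log2 ratios were Selp -1.70 and Cxcl12 -1.54 in cells of at least 500000 reads, Actc1 0.34 in cells with Xist reads, and Mrc1 -0.36 and Ccl3 -0.63 without the macrophage-gene cells. In cells with Y reads they were Gfi1b 1.25, Thbs1 -1.22, Cxcl12 -3.47, Hey2 -4.27, Jag1 -0.32, Rb1 -0.82, Btg2 -1.04 and Hmga1 0.024, of which Cxcl12 and Hey2 were at 0 in the titled cells. The cause was not tested. TMM and median-of-ratios scaling shifted all log2 ratios by -0.09 and -0.10. With 1 sample per group, no spread between embryos can be given, and title and plate cannot be told apart. Leaving out cells under 100000 reads or those rich in globin reads removed 0 EHT cells. No paired analysis was possible because the result comes from no test and the labels give no shared replicate numbers.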

Other observations

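Rps3a3, a processed copy of a ribosomal protein gene whose reads can be shared with its parent, split the cells into separate groups by level. It was above 50 CPM in 21 of 42 titled EHT cells and in 0 of 41 E10.5 EHT cells, with no titled cell between 31.7 and 136.1 CPM. All 21 were among the 33 titled cells with Xist reads, and none of the 9 titled cells with Y reads had it. In titled HE and Endo cells with Y reads it was above 50 CPM in 10 of 18 and 7 of 19. In the other sorts it was above 50 CPM in 26 of 39 titled HE cells, 23 of 41 titled Endo cells, 19 of 95 HE cells and 17 of 73 Endo cells of E10.5, and in 0 of 42 IAHC cells of E10.5, 0 of 37 HE cells and 0 of 22 IAHC cells of E11.5.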
